A study of Homo sapiens with 2 samples.

Results

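The autophagy and lysosome genes described here are 39 genes, chosen by name: 22 genes of the autophagy machinery, 12 genes of lysosomal enzymes and membrane proteins, and 5 genes of the MiT/TFE transcription factors and of lysosomal nutrient sensing. All 39 were found among the 19775 genes with a probe set of their own, and all 39 were among the 12841 genes bright enough to be compared. The study measured total RNA of HCT15, an established human colorectal adenocarcinoma line, on 1 Affymetrix array of cells that received ARID3B-Cas9, labelled ARID3B knockout, and on 1 array of cells that received a control. ARID3B is a transcription factor that binds AT-rich DNA. The sources used here do not give what the control cells received, where the guide cuts, or whether the edited cells were 1 clone or a mixture. Both groups were HCT15 cells grown in the same serum-containing RPMI medium.

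Autophagy delivers cytoplasm to the lysosome. The ULK kinase complex starts it, a class III PI3-kinase complex around BECN1 marks the membrane, and a conjugation system attaches small ubiquitin-like proteins of the ATG8 family (LC3 and GABARAP) to the growing autophagosome. Receptors such as SQSTM1 link cargo to the ATG8 proteins, and lysosomal hydrolases degrade it once the V-ATPase has acidified the lumen. TFEB, TFE3 and MITF are transcription factors that bind the E-box CACGTG in many lysosomal gene promoters and are held in the cytoplasm when mTORC1 is active at the lysosome. In colorectal epithelium the pathway serves turnover of damaged organelles and survival under nutrient limitation.

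Each group had 1 array, so that nothing below could be checked against replicates or tested, and precision is limited by the number of arrays. The arrays measured bulk RNA, in which fewer cells carrying a transcript and less of it per cell cannot be told apart. Each difference is the knockout-labelled minus the control value on the log2 scale and describes these arrays. ARID3B itself, the check of the label, had a value of 6.09 on the knockout-labelled array, against 5.12 on the control array (difference 0.97). This is the opposite of the direction a lost transcript would give, and the single probe set may not cover the edited stretch, so every direction below belongs to the array labelled knockout. The median over all probe sets was 4.59 on the knockout-labelled array and 4.59 on the control array, and values correlated at r = 0.966 across the genes compared, which are not independent replicates. Differences are relative to the other genes of an array, whose median difference was 0.035. Bacterial poly-A spike-in RNAs, normally added before labelling, differed by a mean of -1.19 and were lower in 24 of 24 probe sets. Scaled on them, every difference moves up by that amount, while the gaps between genes stay as they are. All 39 members then lie above 0, NEU1 and ATG5 included, as do 97.5% of the genes compared. Of 10 colon epithelial markers 8 were at or above 4.59, the floor set for dim genes, on the knockout-labelled array and 8 on the control array, with KRT20 and CDH17 below. Likewise the defining leukocyte marker PTPRC (2.72 on the knockout-labelled array, 2.48 on the control array) and the endothelial marker CDH5 (2.07 on the knockout-labelled array, 2.17 on the control array) were under it. Among other markers of non-epithelial cells CD3E, CD14, COL1A1 and PECAM1 reached it on both arrays, at most 7.12, and DCN on the knockout-labelled array alone.

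The promoters of the lysosomal genes are shown first, since most of those matched held an E-box. RefSeq promoters of build GRCh38.p14 were matched for 34 of the 39 members, and a gene with several starts was counted if any of them held the motif. CACGTG, which reads the same on both strands, lay within the 250 bases before the start of 6 of 8 lysosomal genes, 2 of 22 autophagy machinery genes and 1 further member, FNIP1. It lay in that window of 11.2% of 10373 genes compared on the arrays and of 7.73% of all 27305 genes in the table. The 6 lysosomal genes with an E-box are all among the members known as targets of TFEB, which binds this E-box. Their share is therefore not independent of how the genes were chosen. The stretches below are written 5′ to 3′ along the gene's strand, with the E-boxes in capitals, from GRCh38.p14. LAMP1 is shown for the row of 4 E-boxes in 1 stretch and 1 more nearer the start, MCOLN1 and CTSA for 2 each, and the others for 1.
LAMP1, chr13:113297027-113297122, plus strand: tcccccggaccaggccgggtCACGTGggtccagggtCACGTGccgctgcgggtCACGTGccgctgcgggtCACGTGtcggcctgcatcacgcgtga
LAMP1, chr13:113297191-113297236, plus strand: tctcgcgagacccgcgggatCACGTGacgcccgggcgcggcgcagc
MCOLN1, chr19:7522563-7522623, plus strand: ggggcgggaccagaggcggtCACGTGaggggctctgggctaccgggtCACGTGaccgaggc
ATP6V0D1, chr16:67481191-67481236, minus strand: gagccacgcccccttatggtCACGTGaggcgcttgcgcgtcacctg
CTSA, chr20:45891273-45891334, plus strand: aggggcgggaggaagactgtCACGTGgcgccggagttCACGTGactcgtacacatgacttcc
CTSD, chr11:1763949-1763994, minus strand: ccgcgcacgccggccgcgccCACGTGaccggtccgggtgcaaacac
NEU1, chr6:31862922-31862967, minus strand: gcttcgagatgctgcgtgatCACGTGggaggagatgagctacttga

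The 3 members outside the lysosomal group that held an E-box are shown for comparison.
ATG14, chr14:55411831-55411871, minus strand: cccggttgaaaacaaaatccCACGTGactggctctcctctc
ATG3, chr3:112561963-112562000, minus strand: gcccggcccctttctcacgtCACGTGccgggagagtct
FNIP1, chr5:131797167-131797212, minus strand: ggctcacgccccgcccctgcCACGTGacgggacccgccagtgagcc
FNIP1, chr5:131797086-131797131, minus strand: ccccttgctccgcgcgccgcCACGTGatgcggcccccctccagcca

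WIPI1, the member with the largest difference, held no E-box in its 250 bases, of which 79.6% were G or C.
WIPI1, chr17:68457497-68457746, minus strand: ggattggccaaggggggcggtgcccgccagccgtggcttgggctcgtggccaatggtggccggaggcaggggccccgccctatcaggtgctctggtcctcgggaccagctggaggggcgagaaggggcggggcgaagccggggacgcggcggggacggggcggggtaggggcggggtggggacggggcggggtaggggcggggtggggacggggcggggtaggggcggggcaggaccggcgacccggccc

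A match is a description of letters and not a site of binding. The longer form TCACGTGA, which contains CACGTG, lay in 4 of 8 lysosomal promoters (LAMP1, MCOLN1, ATP6V0D1 and CTSA), in 0 of 22 of the autophagy machinery and in 2.00% of the genes compared. TGATGNAA, the composite element read by ATF4 with a C/EBP partner, was searched on both strands and lay in 0 of 34 members and in 2.42% of the genes compared. TGACNNNGC, the core of the antioxidant response element, lay in 5 of 8 lysosomal, 2 of 22 autophagy machinery promoters and in 15.9% of the genes compared. RRAGD, LAMP2, ATP6V1H, CTSB and HEXA had no entry in the table.

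Genes of the autophagy machinery were mostly higher on the knockout-labelled array, and lysosomal genes were not. The median difference was 0.32 over the 22 genes of the machinery and -0.0073 over the 12 lysosomal genes, so that the machinery stood 0.33 above. The middle 50% of the machinery ran from 0.14 to 0.48 and that of the lysosomal genes from -0.35 to 0.12. These ranges narrowly missed overlapping, although the full ranges did overlap (-0.77 to 1.12 and -0.80 to 0.35). That of all genes compared, from -0.24 to 0.25, overlapped the middle 50% of both groups. Above 0 were 19 of the 22 machinery genes and 6 of the 12 lysosomal genes, against 52.9% of all genes compared. Once probe sets marked as able to match several transcripts were left out, these counts were 8 of 14 machinery and 5 of 9 lysosomal genes, against 50.7% of genes. The middle 50% then ran from -0.16 to 0.44 for the machinery and from -0.13 to 0.072 for the lysosomal genes and overlapped. The 5 genes of the MiT/TFE factors and nutrient sensing were all above 0, with a median of 0.31.

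Most of these differences were small. Over all 39 members 4 were at least 1.5-fold higher, where 5.83% of the genes compared were, and 2 were at least 1.5-fold lower, where 10.5% were. The higher ones were WIPI1, NBR1, ULK1 and SQSTM1, all of the machinery, and the lower ones ATG5, of the machinery, and NEU1, a lysosomal enzyme. At 2-fold there was 1 higher (1.05% of the genes compared) and 0 lower (3.79%). Most members thus differed by less than 1.5-fold in either direction, as did most of the genes compared. Genes of similar expression scattered with a scaled median absolute deviation of 0.255 to 0.437 by bin. This scatter runs across genes and can hold real differences as well as noise, so it does not give the precision of a single gene. Beyond that spread were 13 members upward (16.4% of the genes compared) and 3 downward (18.4%), and the other 23 members lay within it.

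**Figure D1:**
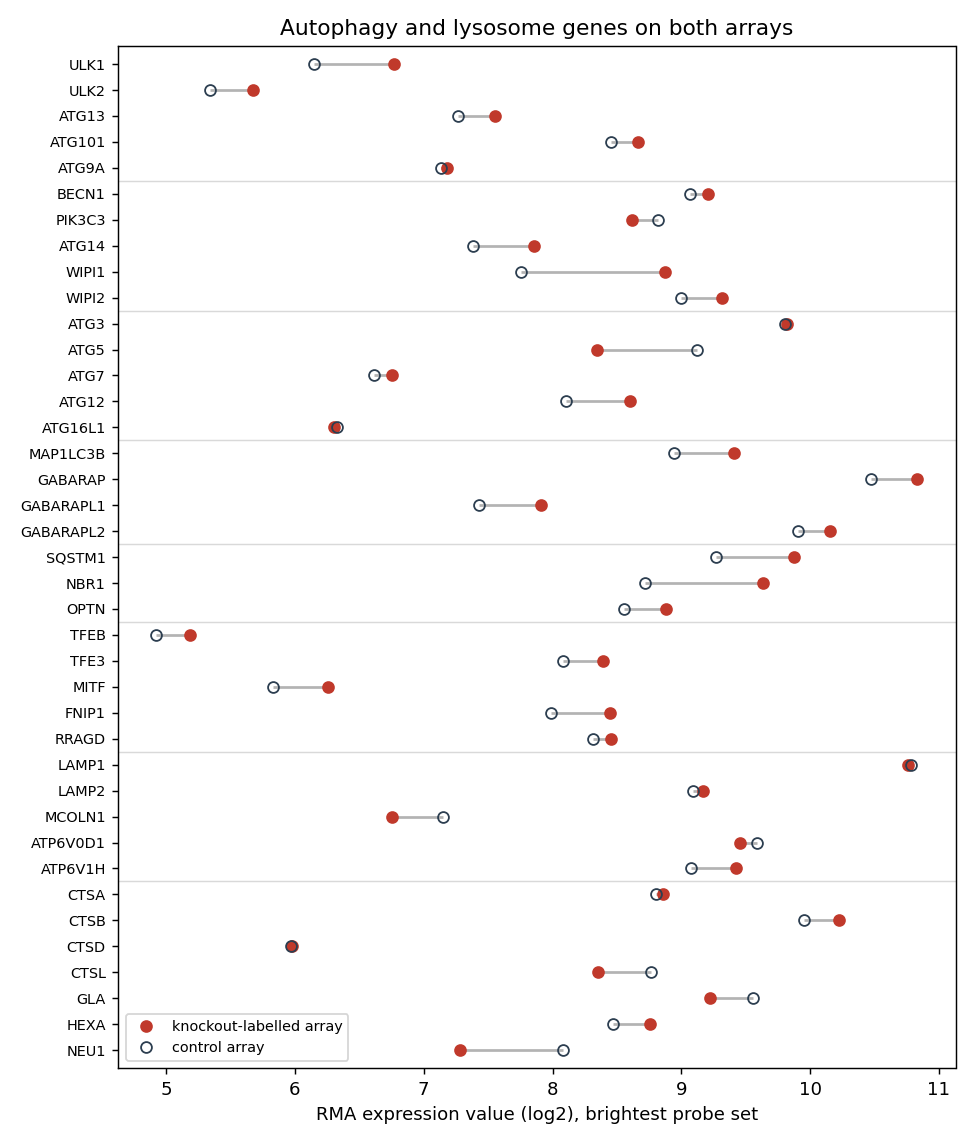
RMA expression values (log2) of the brightest probe set of each of the 39 genes, with the knockout-labelled array as filled red points and the control array as open dark points, and grey lines between roles. Red points lie to the right for 19 of 22 genes of the machinery (ULK1 to OPTN) and for 6 of 12 lysosomal genes (LAMP1 to NEU1).

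All genes of the initiation step differed upward. ULK1, the kinase that starts autophagy and is inhibited by mTORC1, had a value of 6.77 on the knockout-labelled array, against 6.15 on the control array, a difference of 0.62 or 1.54-fold. ULK2, its paralog, had 5.68 on the knockout-labelled array, against 5.34 on the control array (0.34), and its 4 probe sets lay between 0.20 and 0.34, all higher. The partner ATG13, at 7.56 on the knockout-labelled array against 7.26 on the control array (0.29), was also higher in 3 of 3 probe sets. ATG101, which stabilises ATG13, differed by 0.21 and the lipid scramblase ATG9A by 0.049. The group's median was 0.29, and ULK1 alone exceeded the spread of genes of similar expression.

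WIPI1 had the largest difference of any member. This protein binds the phosphoinositide made by the PI3-kinase complex and helps to build the autophagosome membrane. It had a value of 8.87 on the knockout-labelled array, against 7.76 on the control array, a difference of 1.12 or 2.17-fold, and its other probe set differed by 1.13. Its paralog WIPI2, at 9.32 on the knockout-labelled array against 8.999 on the control array, was higher by 0.32 and in 3 of 4 probe sets, with the fourth at -0.74. Within the kinase complex ATG14, the subunit that directs it to autophagy, had 7.85 on the knockout-labelled array, against 7.38 on the control array (0.47). BECN1, the scaffold, differed by 0.14 and PIK3C3, the catalytic subunit, by -0.20, both within the spread. The kinase and its scaffold therefore differed less than ATG14 and WIPI1.

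The conjugation genes were divided. ATG12, the ubiquitin-like protein that is joined to ATG5, had 8.60 on the knockout-labelled array, against 8.11 on the control array (0.50), and was higher in 3 of 3 probe sets. Its partner ATG5 had 8.35 on the knockout-labelled array, against 9.12 on the control array, a difference of -0.77 or 1.71-fold lower. The 3 ATG5 probe sets disagreed: both brighter ones were lower, at -0.77 and -0.67, and the dimmest was higher at 0.78, so that their mean was -0.22. ATG7, the activating enzyme, differed by 0.14, ATG3, the enzyme that hands on ATG8 proteins, by 0.020 and ATG16L1, the membrane partner of the ATG12-ATG5 conjugate, by -0.019, all within the spread. The dimmer ATG3 probe set differed by -0.43. The median of the 5 genes was 0.020, close to that of all genes compared.

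The RNA of all 4 ATG8 genes among the members was higher, from 0.25 to 0.48. GABARAPL1, which serves late autophagosome steps, had 7.91 on the knockout-labelled array, against 7.43 on the control array (0.48). MAP1LC3B, the LC3 form used as the common autophagosome marker, had 9.41 on the knockout-labelled array, against 8.94 on the control array (0.47), and its other probe set differed by 0.68. GABARAP, at 10.83 on the knockout-labelled array against 10.47 on the control array, differed by 0.36, and GABARAPL2 by 0.25. Of these 4 genes 3 lay beyond the spread, and no probe set of theirs was lower. Outside the members, the LC3 gene MAP1LC3A differed by -0.020, with 1 of 2 probe sets lower, and MAP1LC3C was under the floor. Genes of this family are close in sequence, and how far their probe sets cross-react was not tested.

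The cargo receptors were higher in their brightest probe sets. NBR1, a ubiquitin-binding receptor, had 9.64 on the knockout-labelled array, against 8.72 on the control array, a difference of 0.92 or 1.89-fold. Its 3 probe sets above the floor lay between 0.92 and 1.02. SQSTM1, the receptor p62, had 9.88 on the knockout-labelled array, against 9.27 on the control array (0.61, 1.52-fold). Its 4 probe sets were less even, from -0.017 to 1.28, with 3 of 4 higher. OPTN, a receptor of mitochondria and bacteria, differed by 0.33 in 1 probe set and by -0.29 in the other. Only NBR1 of the 3 receptors was thus higher in every probe set above the floor.

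The MiT/TFE factors were all higher by small amounts. MITF had 6.26 on the knockout-labelled array, against 5.83 on the control array (0.43). TFE3 had 8.39 on the knockout-labelled array, against 8.08 on the control array (0.31), and TFEB had 5.18 on the knockout-labelled array, against 4.92 on the control array (0.26). All 7 probe sets of the 3 genes above the floor were higher. FNIP1, the partner of folliculin in sensing amino acids at the lysosome, had 8.44 on the knockout-labelled array, against 7.98 on the control array (0.46). RRAGD, a Rag GTPase and known TFEB target, differed by 0.14 and its other probe set by -0.12. These factors are controlled largely by where they sit in the cell, which an RNA measurement does not show.

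Membrane proteins of the lysosome differed in both directions, from -0.40 to 0.35. LAMP1, the main glycoprotein of the lysosomal membrane and the gene with 5 E-boxes above, had 10.76 on the knockout-labelled array, against 10.78 on the control array (-0.024). Its 3 dimmer probe sets differed by 0.081, 0.26 and 0, so that the sign depends on the probe set. LAMP2, the other major glycoprotein of that membrane, differed by 0.072 and ranged from -0.44 to 0.086 over its 4 probe sets. MCOLN1, the lysosomal calcium channel, had 6.75 on the knockout-labelled array, against 7.15 on the control array (-0.40). Of the V-ATPase subunits ATP6V1H differed by 0.35 and ATP6V0D1 by -0.13. None of the 5 exceeded the spread of genes of similar expression.

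Enzymes of the lysosome went both ways. NEU1, the lysosomal sialidase, was the lowest of all 39 members, with 7.28 on the knockout-labelled array, against 8.08 on the control array, a difference of -0.80 or 1.74-fold lower in its single probe set. CTSL, a cysteine protease, had 8.36 on the knockout-labelled array, against 8.77 on the control array (-0.41). GLA, the alpha-galactosidase, had 9.22 on the knockout-labelled array, against 9.56 on the control array (-0.33). CTSB, another cysteine protease, had 10.22 on the knockout-labelled array, against 9.95 on the control array (0.27), and 4 of 5 probe sets were higher. HEXA, a hexosaminidase subunit, differed by 0.29 in its brightest probe set, while both others above the floor were below 0. The protective protein CTSA, which forms a complex with NEU1, differed by 0.056 and the aspartic protease CTSD by 0.0098, so that NEU1 and its partner were not lower together.

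**Figure D2:**
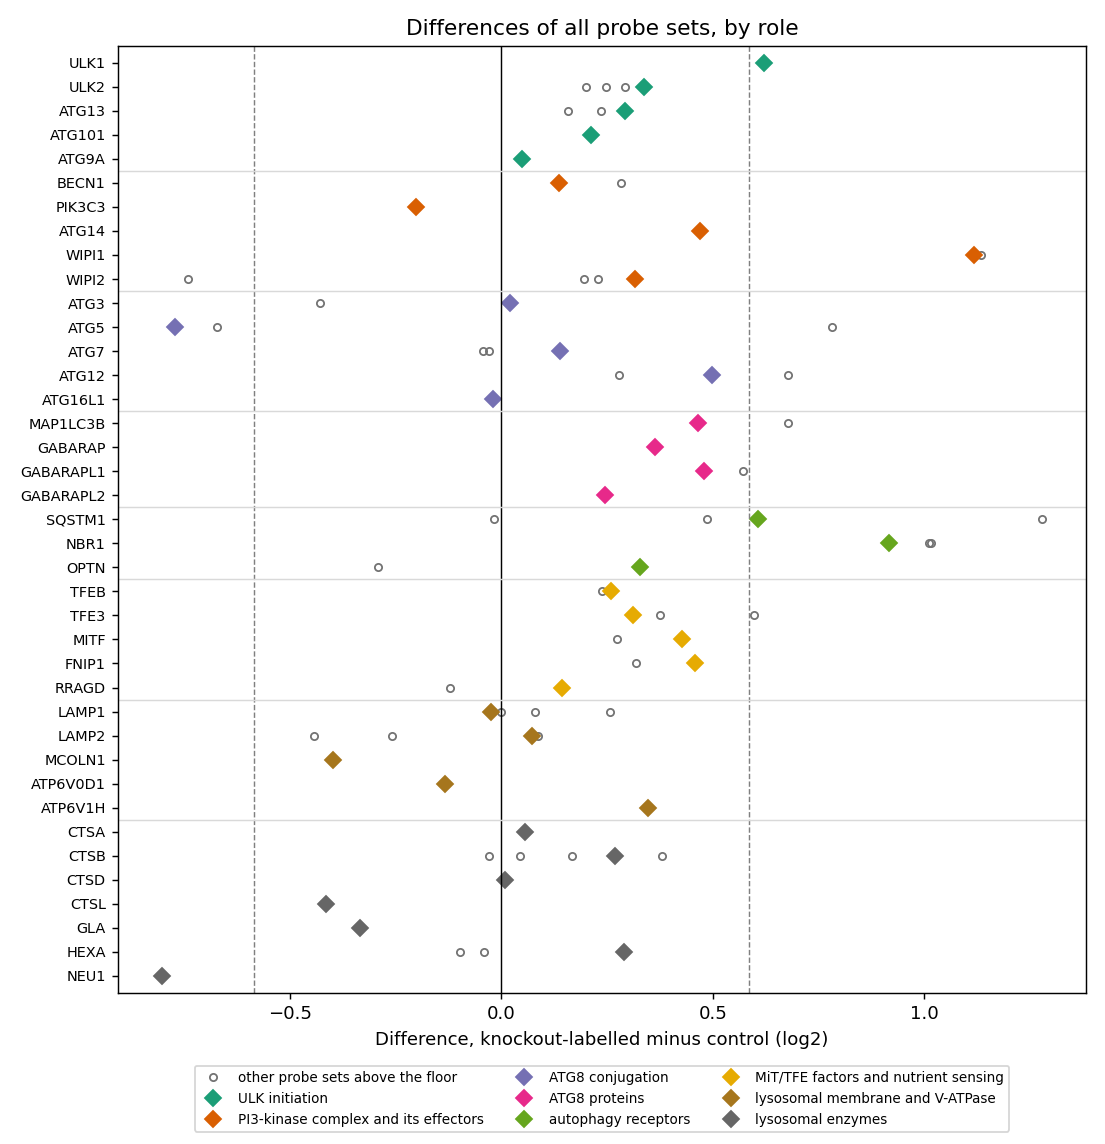
Difference (log2, knockout-labelled minus control) of each gene: coloured diamonds are the brightest probe set by role, open circles the other probe sets above the floor, and dashed lines mark 1.5-fold. The ATG8 genes among the members have every probe set above 0, while ATG5, WIPI2, SQSTM1 and OPTN have probe sets on both sides.

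Probe sets that did not represent their gene measure the same RNA and are no replicates. Of the 25 such probe sets of the machinery above the floor 18 were higher, with a median of 0.25. Of the 12 of lysosomal genes 6 were higher, with a median of 0.022. The share of such probe sets that were higher over all genes was not computed. Among the 14 machinery genes with several probe sets 8 were higher in each, as were 33.9% of the 6297 such genes among all compared, and 6 were mixed. All 4 lysosomal genes with several probe sets were mixed, against 2232 of 6297 (35.4%) of all such genes.

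Set beside the E-boxes, the 6 lysosomal genes that held one in the promoter window differed by -0.80 (NEU1), -0.40 (MCOLN1), -0.13 (ATP6V0D1), -0.024 (LAMP1), 0.0098 (CTSD) and 0.056 (CTSA). These are values of the brightest probe sets, and the other LAMP1 probe sets above the floor were at 0 or higher. ATG14 and FNIP1, which also held one, differed by 0.47 and 0.46, and ATG3 by 0.020. Over all genes compared the median difference was 0.00 with an E-box in the window and 0.036 without. Of the 14 members known as targets of TFEB, the 3 of the machinery (WIPI1, SQSTM1 and MAP1LC3B) had a median of 0.61 and the 10 lysosomal ones of -0.0073. RRAGD is the fourteenth.

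Among upstream genes of the stress and nutrient pathways DDIT4, DDIT3 and SESN2 differed more than any member. DDIT4, an inhibitor of mTORC1, had 11.70 on the knockout-labelled array, against 7.86 on the control array (3.85). SESN2, which restrains mTORC1 when leucine is scarce, had 8.14 on the knockout-labelled array, against 6.36 on the control array (1.78). The transcription factors DDIT3 (CHOP) and ATF4 differed by 3.39 and 0.81, and TRIB3, their common target, by 0.56. Of 12 autophagy genes known from mouse fibroblasts as targets of ATF4 or CHOP, 9 were above 0 (52.9% of all genes compared) with a median of 0.19, and 2 (NBR1 and SQSTM1) were at least 1.5-fold higher (5.83% of all). ATG5 and ATG10, also on that list, were at least 1.5-fold lower (10.5% of all), at -0.77 and -0.80. The list's median turned to -0.023 without the probe sets able to match several transcripts. The list shares all but ATG10 with the members.

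Further genes of the same pathways were taken from lists that hold none of the members. Over all genes compared the median was 0.035, with 52.9% above 0, 5.83% at least 1.5-fold higher and 10.5% at least 1.5-fold lower. The wider autophagy list had a median of 0.13 over 40 genes compared of 44 listed, with 24 above 0, 4 at least 1.5-fold higher and 2 lower. The wider lysosome list had a median of -0.072 over 46 of 56, with 21 above 0, 3 at least 1.5-fold higher and 4 lower. Other V-ATPase subunits had a median of -0.0064 over 16 of 22, with 8 above 0, 2 at least 1.5-fold higher and 2 lower. The list of mTORC1 and lysosomal nutrient sensing had a median of 0.10 over 36 of 39, with 21 above 0, 5 at least 1.5-fold higher and 2 lower. The order of the autophagy median above the lysosome median was therefore seen in the wider lists too, with a smaller gap. The ranges between lower and upper quartile overlapped for most of their length, however. They ran from -0.17 to 0.31 for the wider autophagy list and from -0.28 to 0.20 for the wider lysosome list.

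**Figure D3:**
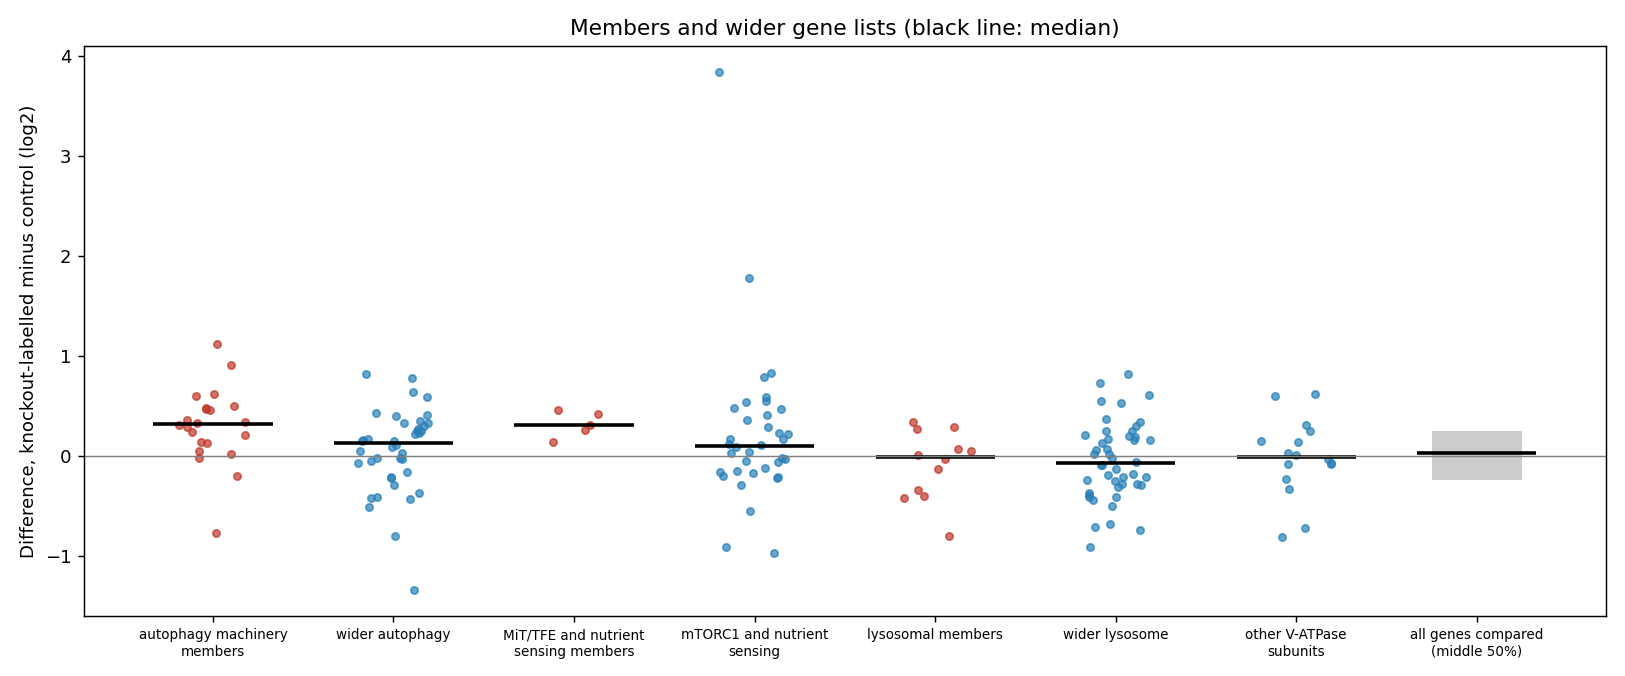
Differences (log2, knockout-labelled minus control) of the members (red) and of wider lists without them (blue), each point a gene and each black line a median, with the middle 50% of all genes compared as a grey bar. The medians are 0.32 for machinery members and 0.13 for the wider autophagy list, against -0.0073 for lysosomal members and -0.072 for the wider lysosome list.

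Genes past 2-fold in those lists were RETREG1, DDIT4 and SESN2. RETREG1, a receptor for autophagy of the endoplasmic reticulum, had 6.21 on the knockout-labelled array, against 7.55 on the control array (-1.34, 2.53-fold lower), and 2 of 2 probe sets were lower. The genes between 1.5-fold and 2-fold are named here after their values were seen. In the wider autophagy list they were ATG16L2 (0.82), the mitophagy receptor BNIP3L (0.79), UVRAG (0.65), the ATG8 protease ATG4D (0.60) and ATG10 (-0.80). In the lysosome list the cysteine protease CTSK (0.82), the iduronate sulfatase IDS (0.73) and the sialic acid exporter SLC17A5 (0.62) were higher, and the cystine exporter CTNS (-0.91), the sulfatase-activating SUMF1 (-0.74), ACP2 (-0.71) and CTSH (-0.68) lower. SLC17A5 carries the sialic acid that NEU1 releases, and these genes differed in opposite directions.

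The V-ATPase and nutrient-sensing lists also held differences of both signs. ATP6V0E1, a small membrane subunit of the V-ATPase, had 10.20 on the knockout-labelled array, against 11.00 on the control array (-0.81), and all 6 of its probe sets were lower, from -1.23 to -0.77. ATP6V0A2 (-0.72) was lower and ATP6V1C2 (0.62) and ATP6V1B2 (0.61) were higher. Beside DDIT4 and SESN2, the AMPK subunits PRKAB2 (0.84) and PRKAA1 (0.79) and the GATOR2 subunit WDR24 (0.59) were higher. SLC38A9, the lysosomal arginine sensor, had 6.31 on the knockout-labelled array, against 7.28 on the control array (-0.97), and SESN3, a paralog of SESN2, was lower at -0.90. The third sestrin, SESN1, differed by -0.15.

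Of the 10 alternatives 5 left the gap between machinery and lysosome at 0.33 by construction, since they shift all genes alike or touch only values under the floor. Under the other 5 it ranged from 0.12 to 0.35. It was smallest, with a machinery median of 0.13, when probe sets marked as able to match several transcripts were left out, which put SQSTM1 at -0.017, OPTN at -0.29 and WIPI2 at -0.74.

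**Figure D4:**
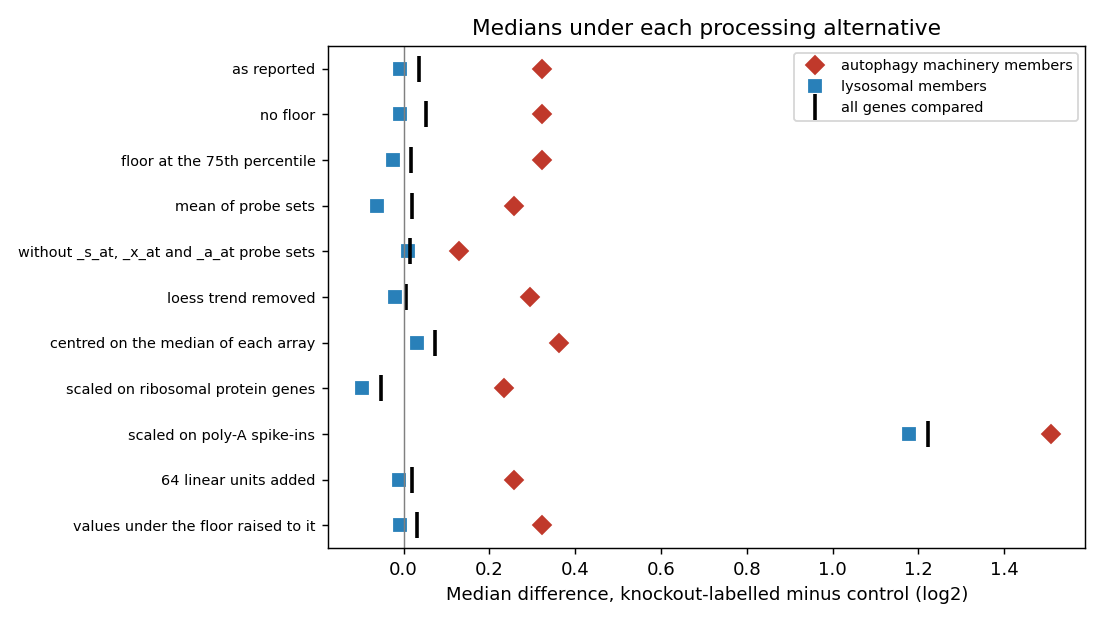
Median difference (log2, knockout-labelled minus control) of the machinery (red diamonds), the lysosomal genes (blue squares) and all genes compared (black bars) under each processing alternative. The machinery lies to the right of the lysosomal genes in each row, and scaling on the spike-ins moves all 3 by 1.19.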

How the data were processed

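The deposited values are log2 expression values per probe set, which the authors made with RMA (no version stated), per the submitters' processing notes. RMA equalises the distribution of the arrays and compresses dim differences. Of 54675 probe sets 62 were controls, and 41091 had 1 gene symbol in the platform annotation. Other probe sets gave no gene value. A gene was represented by its brightest probe set over both arrays and compared where its higher value reached the floor of 4.59, the median of non-control probe sets. The spread of differences was taken in 10 bins of mean expression, with Python 3.11.15 and pandas 2.3.3. The code was run on simulated data with differences planted in bright genes and less scatter than these arrays had. That run checks the arithmetic and not the calls made here. Members and lists were chosen with earlier results of these data known. Named were ARID3B, all members, list genes past 2-fold (at most 6 a list) and DDIT3, ATF4, DDIT4, SESN2 and TRIB3, with others marked. Promoters came from RefSeq, and upstream bases alone were searched. Alternatives covered the floor, the probe set per gene, the scaling, a loess trend (span 0.3), 64 linear units added and fold thresholds of 1.25 and 2.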

Additional observations from a re-analysis of the deposited data

Results flagged for a closer look

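A probe set outside the gene values, annotated to both GABARAPL3 and GABARAPL1 and therefore not used, had 9.03 on the knockout-labelled array, against 8.48 on the control array. It drew attention because its difference of 0.55 lay above the control and close to both GABARAPL1 probe sets (0.48 and 0.57). The part of each gene in its signal was not tested.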

How the results depend on the processing

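No paired analysis was possible because each group is 1 array, and for the same reason no array could be left out. Outside the spike-in scaling, 13 of 22 machinery genes were above 0 under every alternative that gave them a value and 2 below, against 2 and 5 of 12 lysosomal genes. Leaving out probe sets able to match several transcripts gave a value to only 14 machinery and 9 lysosomal genes. Several of the 13, such as NBR1 and MAP1LC3B, were therefore not put to that alternative. The same share over all genes was not computed. No member was under the floor on either array, so the alternatives that touch only such values could not change a sign. A list median is counted as moved past 0.1. Scaled on the poly-A spike-ins, a shift of 1.19 for all genes, the medians were 1.45 (all members), 1.51 (machinery), 1.18 (lysosomal), 1.478 (ULK initiation), 1.503 (PI3-kinase complex), 1.21 (conjugation), 1.60 (ATG8 proteins), 1.79 (receptors), 1.498 (MiT/TFE), 1.16 (lysosomal membrane), 1.196 (lysosomal enzymes), 1.32 (wider autophagy), 1.11 (wider lysosome), 1.18 (V-ATPase), 1.29 (mTORC1), 1.38 (ATF4 or CHOP targets) and 1.29 (TFEB targets), with 37 members at least 1.5-fold higher (89.9% of all genes), 0 lower, ATG5 at 0.42 and NEU1 at 0.39. With suffixed probe sets (those able to match several transcripts) left out, fewer genes were left, the gap was 0.12 and SQSTM1 stood at -0.017. Under that setting 2 members were 1.5-fold higher, as were 6.16% of all genes. The medians were then 0.072 (all members), 0.13 (machinery), 0.13 (PI3-kinase complex), -0.15 (receptors), -0.023 (ATF4 or CHOP targets) and -0.0038 (TFEB targets). As means of probe sets the medians were -0.15 (conjugation), 0.47 (receptors) and -0.13 (lysosomal membrane), and 1 member was 1.5-fold lower (8.83% of all genes). With the floor at the 75th percentile they were -0.14 (lysosomal enzymes) and 0.30 (ATF4 or CHOP targets). With 64 linear units added ULK initiation stood at 0.18 and 2 members were 1.5-fold higher (2.34% of all genes). Scaled on ribosomal protein genes, 2 were also 1.5-fold higher (3.98%). At a log2 threshold of 0.32, 14 members were higher and 5 lower, and the share of all genes at that threshold was not computed. At 2-fold 1 was higher (1.05% of the genes compared) and 0 lower (3.79%). Apart from the shifts and sets named, the cause was not tested.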
